A study of Drosophila melanogaster with 2 samples.

Results

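Binding of the tagged repressor aop (anterior open, also called Yan) was examined at 10 genes that direct eye formation and photoreceptor fate in Drosophila melanogaster: ey, toy, eyg, so, eya, dac, hth, salm, sv and ato. They were chosen by name, with earlier results of these data known, and 10 of 10 matched a protein-coding gene, of 13968 such genes on the 7 chromosome arms. Both samples were whole embryos of a transgenic aop-GFP line, collected at 0 to 24 h of age, in which aop carried eGFP and chromatin was precipitated with an antibody against GFP. They are 2 biological replicates of 1 group, so no comparison between conditions exists, and no test was run. Control libraries were not analysed here. Both came from the same fly line, and whether untagged aop was also present is not given in the labels. The cells that will form the eye are a small part of such an embryo, and the promoter that drives the tagged gene is not given in the labels.

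The protein aop is an ETS-domain repressor that occupies the sites used by the ETS activator pnt, and phosphorylation by MAPK downstream of receptor tyrosine kinases ends its repression. In the developing eye it holds cells back from becoming photoreceptors. The retinal determination network starts with the Pax6 proteins of toy and ey. These activate so, a homeodomain gene of the sine oculis class, and eya, whose product is the co-activator and phosphatase partner of so. The network also holds dac, a nuclear cofactor related to Ski and Sno, and eyg, a Pax gene that promotes eye growth. The gene hth encodes a TALE homeodomain partner of exd and keeps eye progenitors undifferentiated. Downstream, ato is the proneural gene of the R8 photoreceptor, salm encodes a zinc finger protein of the R7 and R8 cells, and sv encodes the Pax2 protein of cone cells. In the eye disc, sv is a textbook target of pnt and aop through an enhancer in one of its introns.

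The authors' lists give each peak a position, a signal value and a score. The score is that of the irreproducible discovery rate (IDR) procedure, which asks how repeatably a peak ranks. It is limited to 1000, and 830 was the lowest score in the thresholded set from both replicates together, equal to an IDR of about 0.01. That set held 1725 peaks. The matching ranked list held 147076 candidates, which covered 26.6% of the chromosome arms, so a candidate alone says little about binding. Replicate 1 had 628 thresholded peaks of 93043 candidates and replicate 2 had 1142 of 113872. The median signal was 64.9 in the combined thresholded set and 15.8 in its ranked list. The scaling of the signal is not given, so signal values of different lists are given side by side but their sizes were not compared. Genes were compared between lists by their standing within each list. Read depth is unknown. In the combined ranked list, 99.8% of the candidates were 256 bp wide with the summit at the centre, and the median width in the replicates' lists was 240 bp, which limits how finely a summit can be placed. A peak belonged to a gene when its summit lay in the gene body or had that gene's transcription start site (TSS) as the nearest protein-coding one.

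Of the 10 genes, which were not chosen independently of these data, 3 had thresholded peaks. They were hth with 3 peaks, salm with 2 and eyg with 1. In whole embryos, strong occupancy in few cells and weak occupancy in many cells cannot be told apart. The other 7, ey, toy, so, eya, dac, sv and ato, had none. Among all protein-coding genes, 1433 (10.3%) had at least 1 peak by the same rule. The 6 peaks had signals of 54.6 to 83.9, and 4 of them were above the median of the set. By rank they stood between 508 and 1255 of 1725. Of the 87 genes with a body of 100 kb or more, 36.8% had a peak, and hth spans 132 kb. Whether the peaks of hth go with its length was not tested. The other genes with peaks have short bodies, 11.3 kb for salm and 5.49 kb for eyg, but their peaks lie outside the body. By the full rule salm had 77 candidates and eyg 31 in the combined list, against a median of 6 over all protein-coding genes.

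The sequences under all 6 peaks are shown because the members' result rests on them, each with 100 bases on both sides of the summit, from Release 6 of the genome (the dm6 assembly). Capitals mark the site GAGAGAG of the GAGA factor Trl on either strand. The letters searched for without a match were the ETS hexamers CCGGAA and ACGGAA, the longer ETS form CCGGAAGT, the site TGATAC for so and its relatives, TGACAG for hth and its relatives, and TATCGATA for DREF and BEAF. The short ETS core GGAA was also searched and is left in lower case.
hth strongest intronic peak, chr3R:10597701-10597901, plus strand: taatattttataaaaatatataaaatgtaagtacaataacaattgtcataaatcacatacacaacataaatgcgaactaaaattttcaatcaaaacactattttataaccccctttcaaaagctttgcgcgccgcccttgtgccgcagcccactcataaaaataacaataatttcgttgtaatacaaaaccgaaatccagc
hth second intronic peak, chr3R:10560665-10560865, plus strand: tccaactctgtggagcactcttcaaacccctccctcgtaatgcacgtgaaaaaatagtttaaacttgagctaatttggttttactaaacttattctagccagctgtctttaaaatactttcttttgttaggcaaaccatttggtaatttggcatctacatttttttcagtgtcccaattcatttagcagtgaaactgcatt
hth promoter peak, chr3R:10614126-10614326, plus strand: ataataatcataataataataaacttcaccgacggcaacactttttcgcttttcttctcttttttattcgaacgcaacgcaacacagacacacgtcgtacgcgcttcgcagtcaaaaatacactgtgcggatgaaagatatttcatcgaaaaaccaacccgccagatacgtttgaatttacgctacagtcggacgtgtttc
salm promoter peak, chr2L:11446006-11446206, plus strand: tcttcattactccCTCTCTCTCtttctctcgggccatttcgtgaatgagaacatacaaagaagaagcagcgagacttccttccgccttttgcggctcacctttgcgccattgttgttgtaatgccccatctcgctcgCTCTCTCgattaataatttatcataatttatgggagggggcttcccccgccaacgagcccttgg
salm upstream peak, chr2L:11447679-11447879, plus strand: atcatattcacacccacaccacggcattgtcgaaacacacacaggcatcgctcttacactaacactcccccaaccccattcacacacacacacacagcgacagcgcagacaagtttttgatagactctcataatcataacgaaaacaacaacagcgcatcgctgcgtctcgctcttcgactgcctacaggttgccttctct
eyg promoter peak, chr3L:12468170-12468370, plus strand: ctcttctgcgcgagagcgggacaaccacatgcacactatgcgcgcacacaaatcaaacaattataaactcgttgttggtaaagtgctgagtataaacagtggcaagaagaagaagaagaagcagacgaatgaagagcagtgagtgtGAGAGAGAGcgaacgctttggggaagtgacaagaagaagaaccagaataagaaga

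No peak of the 6 held an ETS hexamer, while the salm promoter peak and the eyg promoter peak held runs of the GAGA site. The hexamer CCGGAA or ACGGAA stood in 292 of all 1692 thresholded peaks on the arms (17.3%) and in 15.4% of the 143341 candidates that did not overlap the set. With a share this low, 0 of 6 says little about these loci. The window of 250 bp also gave 0 of 6, against 33.7% of all peaks and 32.7% of the candidates. The longer form CCGGAAGT was in 0 of the 6 windows of 100 bp, against 1.65% of all peaks and 0.502% of the candidates. The bare core GGAA, which overlaps these hexamers, was found in 2 of the 6 peaks, against 79.1% of all peaks and 81.9% of the candidates. The 2 with the core were those at the promoters of salm and eyg. The 3 hth peaks and the upstream salm peak had no GGAA on either strand within 100 bp, but all 6 had one within 250 bp, where 97.5% of all peaks did. Other forms of an ETS site were not searched, so these windows may still hold one.

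The GAGA site was in 2 of the 6 peaks, against 8.87% of all peaks and 2.78% of the candidates. Within 50 bp it was in 1 of the 6, against 3.01% of all peaks and 1.43% of the candidates. Within 250 bp it was in 3 of the 6, against 19.9% of all peaks and 6.29% of the candidates. In the eyg peak overlapping copies began 46 bp and 48 bp to the right of the summit on the plus strand, and in the salm promoter peak there were 3 copies on the minus strand. Neither TGATAC, which 4.79% of all peaks and 4.08% of the candidates held, nor TGACAG, which 6.56% of all peaks and 8.36% of the candidates held, was in any of the 6. Likewise none held TATCGATA, found in 3.25% of all peaks and 0.488% of the candidates. These matches describe letters in the windows and do not show which protein was bound. GC content of the windows was 30.8%, 35.8% and 40.3% at the 3 hth peaks, 49.3% at both salm peaks and 45.3% at eyg, against a median of 40.8% over all thresholded peaks.

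The gene hth had the strongest peak of the 10 genes in the combined list and in replicate 1, while in replicate 2 the eyg peak and the upstream salm place had higher signals. The same hth peak was the only one of the 6 found in both replicates' own thresholded lists. The hth peak, at chr3R:10597673-10597928, lies in an intron of 9.19 kb that all 5 annotated transcripts share, 16.5 kb downstream of the TSS used by 4 of them. Its signal was 83.9, rank 540 of the candidates, with a score of 1000. In replicate 1 the place had a signal of 37.2, rank 498, and a score of 990. In replicate 2 it had a signal of 43.4, rank 816, and a score of 995. Both replicates therefore put it past the threshold on their own, which held for 482 (28.5%) of the 1692 thresholded peaks on the arms.

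A further intronic peak of hth stood at chr3R:10560637-10560892, 53.5 kb downstream of the same TSS, with a signal of 65.9 and a score of 1000. Only 2 of the 5 transcripts extend that far, and in them it lies in intron 7. Replicate 2 listed it, with a signal of 38.1, rank 1091, and a score of 996. Replicate 1 did not, with a signal of 27.0, rank 1089, and a score of 503. The third hth peak, at chr3R:10614098-10614353, had its summit 50 bp inside the TSS used by 4 transcripts. Its signal was 54.6 and its score 1000, yet neither replicate listed it, with a score of 328 in replicate 1 (signal 26.7, rank 1127) and 465 in replicate 2 (signal 29.5, rank 2259).

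The other promoter of hth, 25.3 kb further upstream and used by 1 transcript, had no comparable signal. Its strongest candidate within 500 bp had a signal of 18.8, rank 53410, and a score of 70. The peaks of hth were 37.0 kb and 16.4 kb apart. Between and around them the locus held 191 candidates in all, 166 of them in the gene body. That is 1.26 per kb of body, against a median of 1.23 per kb over the 1985 genes with bodies of at least 10 kb. Among the 10000 strongest candidates of the genome stood 22 of the 191 (11.5%), where 6.80% of all candidates do. After the 3 peaks, 4 more candidates scored at least 500. They lay 12.8 kb upstream of the upstream TSS (signal 49.3, score 787), 9.39 kb upstream of it (signal 44.0, score 775), and in introns 60.6 kb (signal 44.6, score 759) and 49.8 kb (signal 46.8, score 546) downstream of the other TSS. The highest of these scores, 787, equals an IDR of 0.0127 and is the nearest to the threshold from below among all candidates of the 10 genes.

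One stretch of hth held no candidate of the combined ranked list. From 10579005 to 10592122 on 3R, it covered 13.1 kb or 9.94% of the body. By summit position, replicate 1 had 7 candidates there and replicate 2 had 11, with best ranks of 5820 and 4659. Some of them lay at the edges of the stretch and overlapped the combined candidates that bound it. The best-ranked ones lay well inside, 53.7 kb (replicate 1) and 52.0 kb (replicate 2) downstream of the upstream TSS. The absence of a candidate in the combined list is therefore not the same as absence of signal in the replicates. The cause was not tested.

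**Figure D1:**
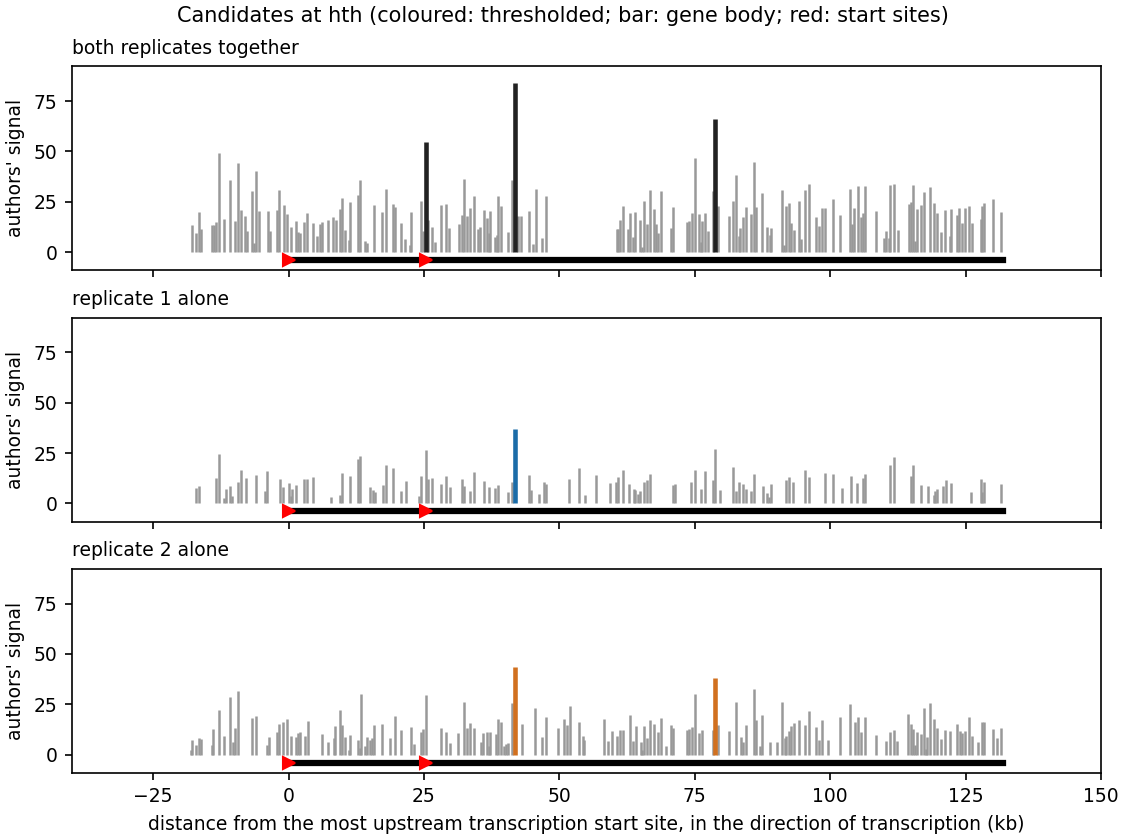
Signal of every candidate assigned to hth (vertical axis, the authors' signal value) by distance in kb from the most upstream TSS, in the combined list and in each replicate's own list. Coloured lines are thresholded peaks (3, 1 and 2), grey lines are other candidates, the bar is the gene body and red arrows are TSSs. The peak in the shared intron is coloured in all 3 lists.

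Both peaks of salm lay upstream of its TSS, and none lay in the gene. The promoter peak, at chr2L:11445978-11446233, had its summit 492 bp from the TSS, a signal of 68.8, rank 798, and a score of 1000. The upstream peak, at chr2L:11447651-11447906, was 1.67 kb further away, with a signal of 67.2, rank 846, and a score of 1000. Its summit lay 2165 bp from the salm TSS but only 288 bp from the start of a noncoding RNA gene, lncRNA:CR46454, which is transcribed in the other direction. The peak is therefore TSS-proximal to that gene and assigned to salm only as the nearest protein-coding gene.

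At the promoter peak replicate 1 had a signal of 25.6, rank 1301, and a score of 287, and replicate 2 had a signal of 41.1, rank 908, and a score of 1000. At the upstream peak replicate 1 had a signal of 28.4, rank 940, and a score of 586, and replicate 2 had a signal of 45.9, rank 713, and a score of 476. The upstream peak was thus the stronger of the 2 in either replicate by signal, but neither listed it, and the promoter peak was listed in replicate 2. The salm territory held 77 candidates. The next strongest lay 27.9 kb downstream of the TSS, beyond the end of the gene (chr2L:11417575-11417830, signal 45.4, rank 2313, score 654).

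**Figure D2:**
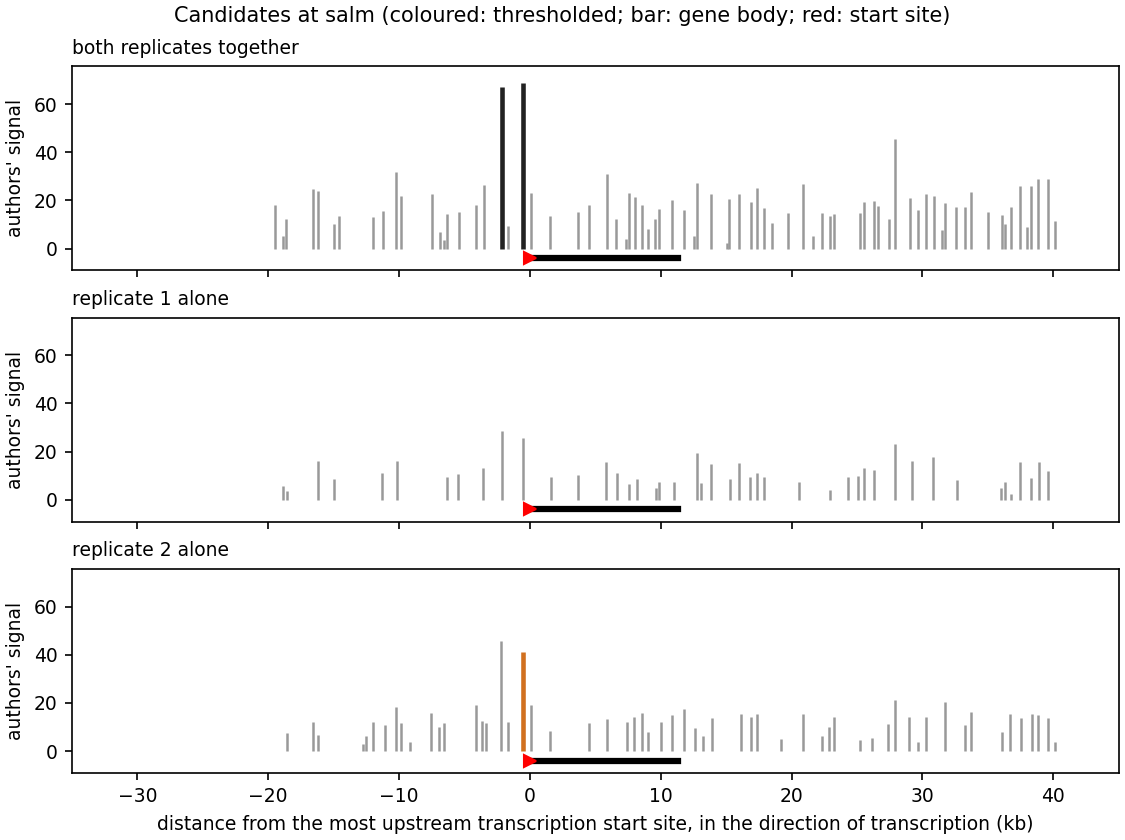
Signal of every candidate assigned to salm by distance in kb from its TSS, in the combined list and in each replicate's own list. Coloured lines are thresholded peaks, grey lines are other candidates, the bar is the gene body and the red arrow is the TSS. The 2 tall lines left of the TSS are the upstream and the promoter peak, present in each panel.

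The peak of eyg was past the threshold in replicate 2 and far below it in replicate 1. It lay at chr3L:12468142-12468397, 249 bp upstream of the only annotated TSS, with a signal of 58.5, rank 1183, and a score of 951. Replicate 2 had a signal of 47.3 there, rank 659, and a score of 1000. Replicate 1 had a candidate 67 bp away with a signal of 17.0, rank 7105, and a score of 120. The strongest eyg candidate of replicate 1 was another one, at 1.85 kb inside the gene, with a signal of 26.4, rank 1171, and a score of 366. In the combined list that place had a signal of 46.7 and a score of 508, and replicate 2 had rank 10505 there. The conservative set, the list of 1473 peaks that the authors named so, did not hold the eyg peak, which scored 780 in its ranked list.

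Of the 6 peaks, replicate 1 listed 1 and replicate 2 listed 4, and 2 were listed by neither. All 6 had an overlapping candidate in both replicates' ranked lists, with ranks of 498 to 7105 in replicate 1 and of 659 to 2259 in replicate 2. Genes with a peak in replicate 1's list numbered 1 of the 10 (hth), against 4.3% of all genes, and in replicate 2's list 3 of the 10, against 7.33%. The conservative set held 5 of the 6 peaks and 2 of the 10 genes, against 9.11% of all genes. By position, 4 of the 6 peaks were TSS-proximal and 2 intronic, where 52.2% of all thresholded peaks on the arms were TSS-proximal and 31.0% intronic.

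**Figure D3:**
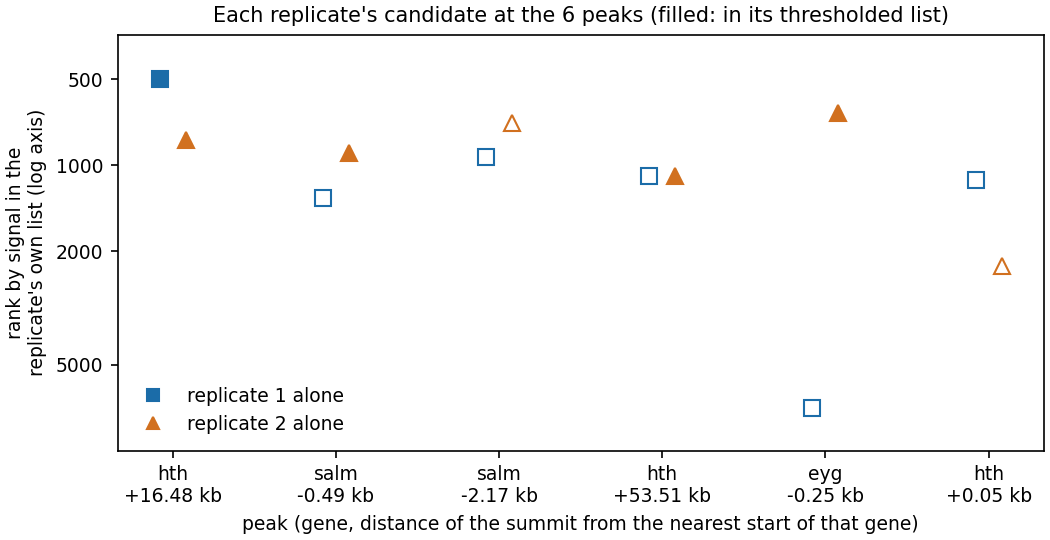
Rank by signal of each replicate's candidate at the 6 peaks of hth, salm and eyg (log axis, strongest at the top), ordered by combined signal. Filled symbols are in the replicate's own thresholded list. The lists hold 93043 and 113872 candidates, so ranks are read within a replicate. The eyg peak is the lowest of the 6 in replicate 1, at 7105, and the highest in replicate 2, at 659.

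The core network genes so and eya had candidates below the threshold, some of them near TSSs. The strongest candidate of so lay 658 bp upstream of its TSS (chr2R:7418564-7418819), with a signal of 46.3, rank 2180, and a score of 610, an IDR of 0.0339. Both replicates had their own strongest so candidate at this place, 32 bp apart, at rank 9535 (signal 15.9) in replicate 1 and rank 2677 (signal 28.1) in replicate 2. Directly at the TSS of so a candidate had a signal of 31.5 and a score of 325. The strongest candidate within 500 bp of a TSS was weaker or absent in 78.6% of all genes.

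For eya the strongest candidate lay in an intron (chr2L:6534378-6534633), with a signal of 47.8, rank 1978, and a score of 532. It was also the strongest of eya in replicate 2 (signal 30.3, rank 2090), but had rank 18788 in replicate 1 (signal 13.3). Replicate 1 had its strongest eya candidate 5314 bp from there, in a coding exon (signal 22.6, rank 2018), a place where replicate 2 had rank 17234. Each of the 3 TSSs of eya had a candidate within 500 bp, with signals of 13.1 to 16.2 in the combined list, near the median of all candidates.

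The cofactor gene dac and the proneural gene ato were weaker. The strongest dac candidate, in an intron (chr2L:16480395-16480650), had a signal of 32.4, rank 8473, and a score of 309. It ranked 14883 in replicate 1 (signal 14.2) and 21656 in replicate 2 (signal 16.3). Replicate 2 had its strongest dac candidate 5425 bp from there, 50 bp inside the TSS of dac (signal 20.6, rank 8752). The strongest ato candidate lay 4.14 kb from the TSS beyond the end of the gene (chr3R:8282068-8282323), with a signal of 23.7, rank 28520, and a score of 117. The replicates placed their strongest ato candidates 4030 bp apart, so no single place near ato stood out in both. Over the 8 genes with candidates, the strongest ones of the 2 replicates lay within 256 bp of each other at 3 genes, hth, salm and so.

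The 3 members on chromosome 4, ey, toy and sv, had almost no candidates to judge. Chromosome 4 held 84 candidates in 1.35 Mb, or 62.3 per Mb, against 1037 to 1150 per Mb on the arms of chromosomes 2 and 3 and on X. Only 13 of its 80 protein-coding genes (16.2%) had a candidate, against 89.0% to 96.7% on those arms and 93.6% of all genes. A thresholded peak was found at 1 of the 80 (1.25%). The replicates' own ranked lists were also sparse, with 74 and 144 candidates on chromosome 4. For toy and sv the combined, replicate 1 and replicate 2 lists had 0 candidates each. The gene sv lay in an empty stretch of 251 kb in the combined list, 251 kb in replicate 1 and 249.9 kb in replicate 2. The stretch around toy was 187 kb in the combined list, 40.3 kb in replicate 1 and 120.2 kb in replicate 2. The lists therefore give no measurement at the sv introns, and the lack of a peak there does not show a lack of binding. The cause of the sparse candidates on chromosome 4 was not tested.

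At ey there were 5 candidates, all in the gene body and none within 500 bp of any of its 3 TSSs in the combined list. The strongest had a signal of 18.7, rank 53509, and a score of 87. The first 15.6 kb of the body, 66.3% of its length, held no candidate of the combined list and none of replicate 1. Replicate 2 had 8 there, the strongest at rank 20924 with a signal of 16.4. The replicates' strongest ey candidates lay 5026 bp apart.

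**Figure D4:**
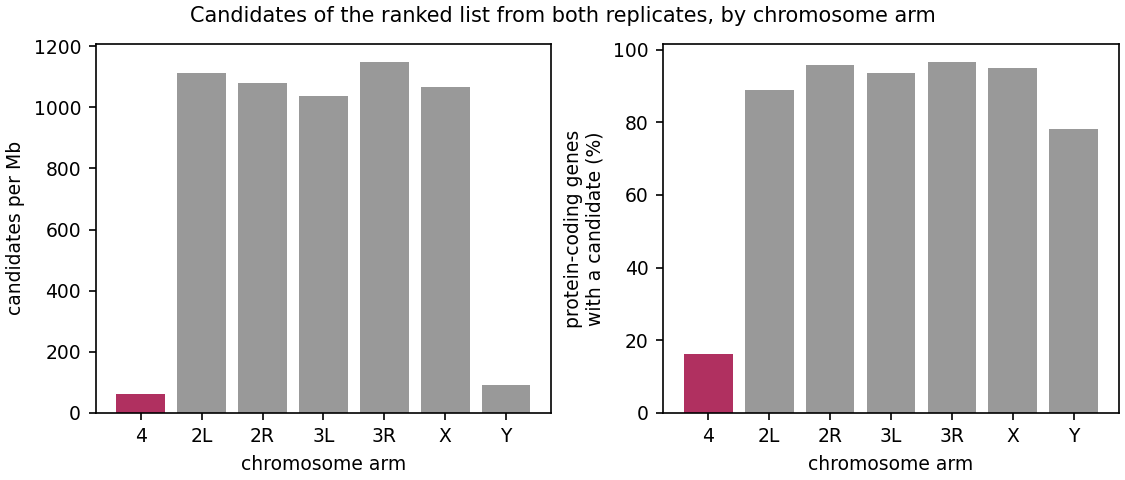
Candidates per Mb (left) and share of protein-coding genes with a candidate (right) by chromosome arm, in the ranked list from both replicates. Chromosome 4, which carries ey, toy and sv, stands at 62.3 per Mb and 16.2%, below the arms of chromosomes 2 and 3 and X.

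Ordered by their strongest candidate in the combined list, the 10 genes were hth, salm, eyg, eya, so, dac, ato and ey, with toy and sv unmeasured. The share of all genes with a weaker or no candidate was 96.3% for hth, 94.7% for salm and 92.6% for eyg. It was 88.5% for eya, 87.5% for so, 63.1% for dac, 29.4% for ato and 15.3% for ey. In replicate 1 the same shares were 96.6% for hth, 93.9% for salm, 92.6% for eyg, 88.1% for eya and 58.7% for so. In replicate 2 they were 94.6% for hth, 95.2% for salm, 95.6% for eyg, 88.0% for eya and 85.0% for so. The first 3 genes changed places between the replicates and so are not separated from each other, but each stood above eya in either replicate. These shares take the strongest candidate of each list, which can lie at different places. For salm it was the promoter peak in the combined list and the upstream place in both replicates. For eyg in replicate 1 it was the place 1.85 kb inside the gene. At the eyg peak itself replicate 1 had a signal of 17.0, below the 22.6 of its strongest eya candidate. The order of so, dac and ato was not stable, since ato stood at 65.0% and dac at 46.8% in replicate 1, against 53.8% for ato and 62.4% for dac in replicate 2. The gene ey stood at 46.9% in replicate 1 and 47.7% in replicate 2, above its combined value. The strongest of many candidates tends to be higher than the strongest of few. In the combined list hth had 191 candidates, salm 77 and eyg 31, where ato had 13 and the median over all genes was 6.

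A promoter window of fixed size does not grow with gene length, although a gene with several TSSs has several windows. Within 500 bp of a TSS the strongest candidate had a signal of 68.8 at salm, 58.5 at eyg, 54.6 at hth, 31.5 at so, 26.9 at dac, 16.2 at eya and 15.1 at ato, and there was none at ey, toy and sv. The shares of all genes with a weaker or no promoter candidate were 96.4% for salm, 94.8% for eyg and 94.0% for hth. In replicate 1 they were 95.2% for hth and 84.5% for eyg, and in replicate 2 91.2% for hth and 96.9% for eyg. For salm they were 0% in replicate 1 and 75.2% in replicate 2, because the summit of its promoter peak fell just outside 500 bp in both, at 0.507 kb in replicate 1 and 0.502 kb in replicate 2.

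**Figure D5:**
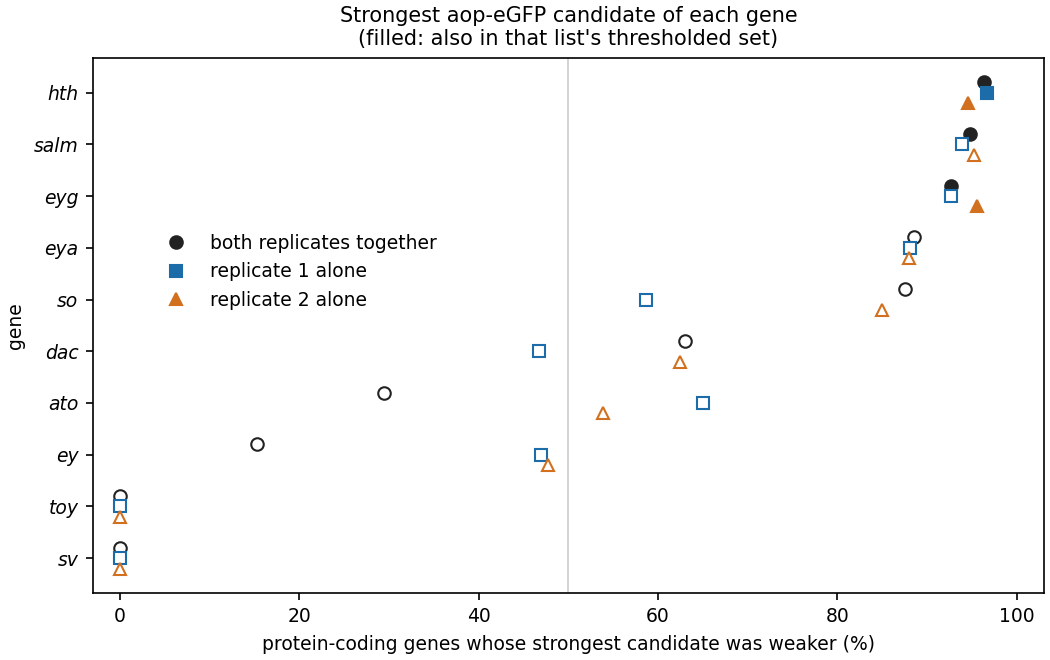
Share of all protein-coding genes whose strongest candidate was weaker or absent (horizontal axis, %), for each of the 10 genes in the combined list and in each replicate's list. Filled symbols are in the thresholded set of that list. The genes hth, salm and eyg lie above 92% in all 3 lists, and toy and sv, with no candidate, lie at 0%. The strongest candidate of a gene can lie at different places in different lists, as for salm and eyg.

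Of 42 further eye genes in 3 lists, also chosen with earlier results known, 6 had a thresholded peak, where 10.3% of all genes did. Among 8 partners of the determination network (Optix, toe, tsh, tio, dan, danr, exd and oc), only dan had one, 5.66 kb upstream of its TSS with a signal of 47.1 and a score of 894, listed by neither replicate. The summit of the dan peak lay in an intron of another annotated gene and was assigned to dan only by the nearest TSS. Of 18 genes of photoreceptor specification, 4 had a peak, elav, ttk, mirr and pros. The neuronal RNA-binding protein gene elav had 2, the stronger with a signal of 151, which both replicates listed. The gene ttk, a zinc finger repressor of neuronal fate, had a signal of 109 at a promoter. Replicate 2 listed the ttk peak and replicate 1, with a score of 697, did not. The Iroquois gene mirr had 98.7, but 40.3 kb from its TSS and 241 bp from the start of a noncoding RNA gene. A second mirr peak, with a signal of 50.3, lay 21.1 kb from its TSS and was listed by neither replicate. At pros, which is expressed in R7 and cone cells, the peak had a signal of 55.1 and came from replicate 2 (score 1000), with a score of 20 in replicate 1. It lay in the pros gene body, but its nearest protein-coding TSS was that of mRpL40, 14.9 kb away. Of 16 genes of phototransduction and the rhabdomere, norpA, the phospholipase C of phototransduction, had a peak, in an intron with a signal of 225, which both replicates listed. The strongest peaks of elav, ttk, mirr and norpA had higher signals in the combined list than any peak of hth, salm or eyg.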

How the data were processed

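Chromatin immunoprecipitation followed by sequencing was done on 2 replicates of whole aop-GFP embryos. The authors deposited peak lists on dm6 from the IDR procedure, ranked and thresholded, per replicate and from both together, per the labels and the readme texts. The deposited lists hold the authors' signal value, a whole-number score limited to 1000 and a summit position. No source used here names the aligner or the peak caller. The signal was used only to describe and rank within a list. Read depth is unknown.

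Coordinates are dm6, 1-based. Gene models came from Ensembl release 115 and sequence from Release 6 of the genome. All coding starts of the 10 genes read ATG in it. Peaks on unplaced sequence kept their rank but were assigned to no gene. TSS-proximal means within 500 bp of any TSS of a gene other than a transposon. Peaks overlapping by at least 1 bp counted as shared. Assignment was tested on simulated data. Work was done in Python 3.11.15 with pandas 2.3.3, numpy 2.4.6 and biopython 1.88. Every peak of the 10 genes is named, and the strongest candidate where there was none. The genes and lists were chosen with earlier results of these data known. Alternatives were the other peak lists, each replicate alone, the stronger peaks, other assignments, overlaps and motif windows.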

Additional observations from a re-analysis of the deposited data

How the results depend on the processing

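Of 30 alternative values, 23 stayed within 1.5 times the count reported or within the spread between replicates, and 7 moved. With one replicate's list alone, genes with a peak were 1 to 3 of 10, peaks at them 1 to 4, and other eye genes with a peak 3 to 5. The low ends came from the shorter list of replicate 1, which held hth alone of the 10 genes. Assignment by the gene body only left 1 gene (hth) with 3 peaks, since the salm and eyg peaks lie upstream of their genes. With candidates of the ranked lists in place of thresholded peaks, all 6 peaks had a counterpart in both replicates, against 1 reported. The median over the 10 genes of the share of genes with a weaker strongest candidate was 75.3%, and 61.8% to 73.7% with one replicate alone. It counts toy and sv, which had no candidate, as 0%, and over the 8 genes with candidates it was 88.0% in the combined list, 76.5% in replicate 1 and 86.5% in replicate 2. The order of genes also changed, with ato above so in replicate 1 (65.0% and 58.7%) and below it in the combined list (29.4% and 87.5%). No paired analysis was possible because there is only 1 group. With read depth unknown, the lack of a candidate does not show a lack of binding.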
